A study of Mus musculus with 6 samples.

Results

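The genes described here code for subunits of the respiratory chain, the protein complexes I to IV of the inner mitochondrial membrane, together with cytochrome c, and they were measured in tumour-exposed mouse macrophages with and without E-FABP, the lipid carrier of the cytosol that Fabp5 encodes. The list was drawn up by name, from the platform's gene symbols: 44 nuclear genes, of which 42 had a probe set of their own among the 18193 genes measured. Of these, 25 are Ndu genes counted with complex I, 4 belong to complex II, 6 to complex III, 6 to complex IV, and Cycs codes for cytochrome c. Ndufs6, whose probe set is also annotated to a related gene, and Cox7b were not analysed here. Each gene was read from its brightest probe set, by mean over the 6 arrays, and its other probe sets served as a check.

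Complex I takes electrons from NADH and complex II takes them from succinate. Both pass them to ubiquinone, complex III carries them on to cytochrome c, and complex IV hands them to oxygen. Complexes I, III and IV pump protons as they do so, and the gradient drives ATP synthase. In macrophages this chain supplies ATP during oxidative metabolism, and it is also a source of reactive oxygen species in inflammatory activation. Nearly all of its subunits are nuclear genes transcribed under factors such as NRF1, GABP and YY1, while a few of the central ones are encoded by mitochondrial DNA.

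There were 3 E-FABP knockout and 3 wild-type cultures, from C57BL/6 mice 6 to 8 weeks old. Bone marrow cells were grown for 7 days in GM-CSF (20 ng/ml) to give macrophages. All cultures, wild type included, were then kept for 18 h with E0771 mouse breast tumour cells that sat apart in an insert, so no culture without tumour cells enters the comparison. The labels name biological replicates but not whether each stands for its own mouse, and the p-values may therefore measure only the spread between these samples. The sources used here do not state which part of Fabp5 was removed.

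The deposited values were log2 intensities of Affymetrix 3' arrays, with array medians of 5.60 to 5.64. Fabp5 itself read 14.41 to 14.47 in wild type and 8.13 to 8.39 in knockout, as the labels have it. All 8 macrophage markers had mean levels above the median of all values (8.72 to 14.85), among them Adgre1 (11.55), Csf1r (13.88) and Lyz2 (14.85). All 8 dendritic cell markers (6.91 to 11.00) and 6 of 7 neutrophil markers (4.42 to 13.06 over the 7) lay above it too. These levels therefore do not single out macrophages. Of 6 epithelial markers of the tumour cells, Krt8 (mean level 5.22), Krt18 (4.07), Krt19 (4.79) and Cldn4 (4.63) lay under 5.63, the median of all values, and Epcam (6.71) and Cdh1 (8.23) lay above it. Over all genes, 519 (2.85%) passed limma's adjusted p of 0.05 as higher in knockout and 373 (2.05%) as lower, and quantile normalization gave 356 and 403. Leaving out knockout replicate 1 gave 9 and 8, leaving out replicate 2 gave 69 and 110, and leaving out replicate 3 gave 369 and 400. For wild-type replicates 1, 2 and 3 left out in turn, the counts were 77 and 100, 21 and 27, and 292 and 217. RNA came from whole cultures, in which fewer cells of a type and less RNA per cell cannot be told apart.

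Promoters of 32 of the 42 genes were found in a RefSeq table (build GRCm38.p6), 34 sequences in all, each running from 250 bases before to 50 after a transcription start. Each was searched on both strands for GCGCA and GCGC parted by 1 base of any kind (NRF1), CCGGAAG (the ETS core that GABP binds) and AANATGGC (YY1). The NRF1 letters stood in 20.6% of these promoters against 4.6% of all 32851 promoters of the same length, the ETS letters in 20.6% against 8.86%, and the YY1 letters in 26.5% against 6.05%. At least 1 of the 3 stood in 61.8% of them against 17.4% of all. No share was taken over the promoters of other genes of like intensity. Matches to different motifs overlapped in 0 of the 34. The following 6 are shown because Ndufa4, Ndufb10, Ndufb5 and Ndufa8 differed most among complex I genes and Sdhd most in complex II, while Cycs lay the other way. Capitals mark the motif matches. Ndufa8 has an NRF1 match (chr2:36049289-36049588, minus strand), Ndufb5 a pair of YY1 matches (chr3:32736813-32737112, plus strand), Ndufb10 a YY1 match (chr17:24724374-24724673, minus strand), and Sdhd an NRF1 and an ETS match (chr9:50603800-50604099, minus strand). In Ndufa4 (chr6:11907401-11907700, minus strand) and Cycs (chr6:50566520-50566819, minus strand) none of these letters occurred in the window as an exact match. Stretches that differ from the letters by a base were not searched for, so a binding site is not excluded.
Ndufa8: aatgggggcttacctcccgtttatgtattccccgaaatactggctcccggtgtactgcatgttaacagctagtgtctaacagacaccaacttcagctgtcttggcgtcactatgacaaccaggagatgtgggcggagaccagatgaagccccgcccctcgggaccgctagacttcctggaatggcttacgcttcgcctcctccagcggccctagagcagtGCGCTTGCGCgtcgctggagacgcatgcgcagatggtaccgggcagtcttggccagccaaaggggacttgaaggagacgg
Ndufb5: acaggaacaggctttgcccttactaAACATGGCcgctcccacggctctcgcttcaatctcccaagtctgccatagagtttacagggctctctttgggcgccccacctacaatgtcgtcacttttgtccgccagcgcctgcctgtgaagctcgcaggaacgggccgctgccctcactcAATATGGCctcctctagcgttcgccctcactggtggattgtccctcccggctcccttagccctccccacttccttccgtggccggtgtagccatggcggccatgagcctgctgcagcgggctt
Ndufb10: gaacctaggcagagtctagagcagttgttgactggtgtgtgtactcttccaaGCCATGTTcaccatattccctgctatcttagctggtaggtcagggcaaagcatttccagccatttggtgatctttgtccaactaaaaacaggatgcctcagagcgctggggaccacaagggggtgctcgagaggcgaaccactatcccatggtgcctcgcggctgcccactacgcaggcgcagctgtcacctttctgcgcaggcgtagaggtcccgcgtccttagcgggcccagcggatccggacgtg
Sdhd: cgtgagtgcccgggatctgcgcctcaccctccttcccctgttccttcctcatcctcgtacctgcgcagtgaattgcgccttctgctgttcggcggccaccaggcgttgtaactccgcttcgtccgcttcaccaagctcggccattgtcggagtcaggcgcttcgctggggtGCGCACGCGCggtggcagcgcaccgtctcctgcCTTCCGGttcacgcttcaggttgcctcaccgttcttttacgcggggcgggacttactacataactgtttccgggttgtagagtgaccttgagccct
Ndufa4: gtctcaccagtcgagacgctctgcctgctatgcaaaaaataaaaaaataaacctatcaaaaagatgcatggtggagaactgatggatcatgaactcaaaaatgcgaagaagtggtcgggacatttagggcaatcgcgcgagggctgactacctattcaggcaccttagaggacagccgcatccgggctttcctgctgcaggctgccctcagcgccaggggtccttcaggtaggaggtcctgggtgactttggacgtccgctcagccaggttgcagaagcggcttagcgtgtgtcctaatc
Cycs: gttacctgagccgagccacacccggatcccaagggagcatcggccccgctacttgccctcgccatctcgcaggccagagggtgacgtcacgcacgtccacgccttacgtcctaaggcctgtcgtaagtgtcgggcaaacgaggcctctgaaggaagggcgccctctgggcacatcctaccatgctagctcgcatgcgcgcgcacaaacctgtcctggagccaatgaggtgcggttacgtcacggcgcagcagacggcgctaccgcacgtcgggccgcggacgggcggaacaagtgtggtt

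The respiratory chain genes lay slightly higher in knockout than in wild type across all 4 complexes, and none of them passed the adjusted threshold by itself in the fit reported here. The mean was higher in knockout for 39 of the 42 genes (92.9%), against 53.1% of all genes. The median difference was 0.12 on the log2 scale, an 8.33% higher intensity, where the median of all genes was 0.01. At a limma adjusted p of 0.05, 0 of 42 were higher (background 2.85%) and 0 were lower (background 2.05%). At an unadjusted p of 0.05, 14 were higher (33.3% of the 42, against 15.2% of all genes) and 0 were lower (against 8.15%). At an adjusted p of 0.1, 5 were higher, against 7.04% of all genes, and 0 were lower, against 3.63%. The lowest adjusted p among the 42 was 0.0613.

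The separation of the genotypes was regular although small. In 33 of the 42 genes (78.6%) all 3 knockout arrays lay above all 3 wild-type arrays, against 20.7% of all genes. For Cycs all 3 lay below, against 11.2% of all genes. Since respiratory chain genes are bright, the 2602 genes in their range of mean log2 intensity (9.76 to 13.66) are the closer background: there the median difference was 0.03, the mean was higher in 59.6%, and the knockout arrays lay above without overlap in 33.4% and below in 19.3%. Of those genes 2.42% passed as higher and 5.61% as lower at the adjusted p of 0.05, and 18.9% and 14.9% at the unadjusted p of 0.05. The values of the 42 genes share the same 6 RNA samples and are not independent of each other.

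**Figure D1:**
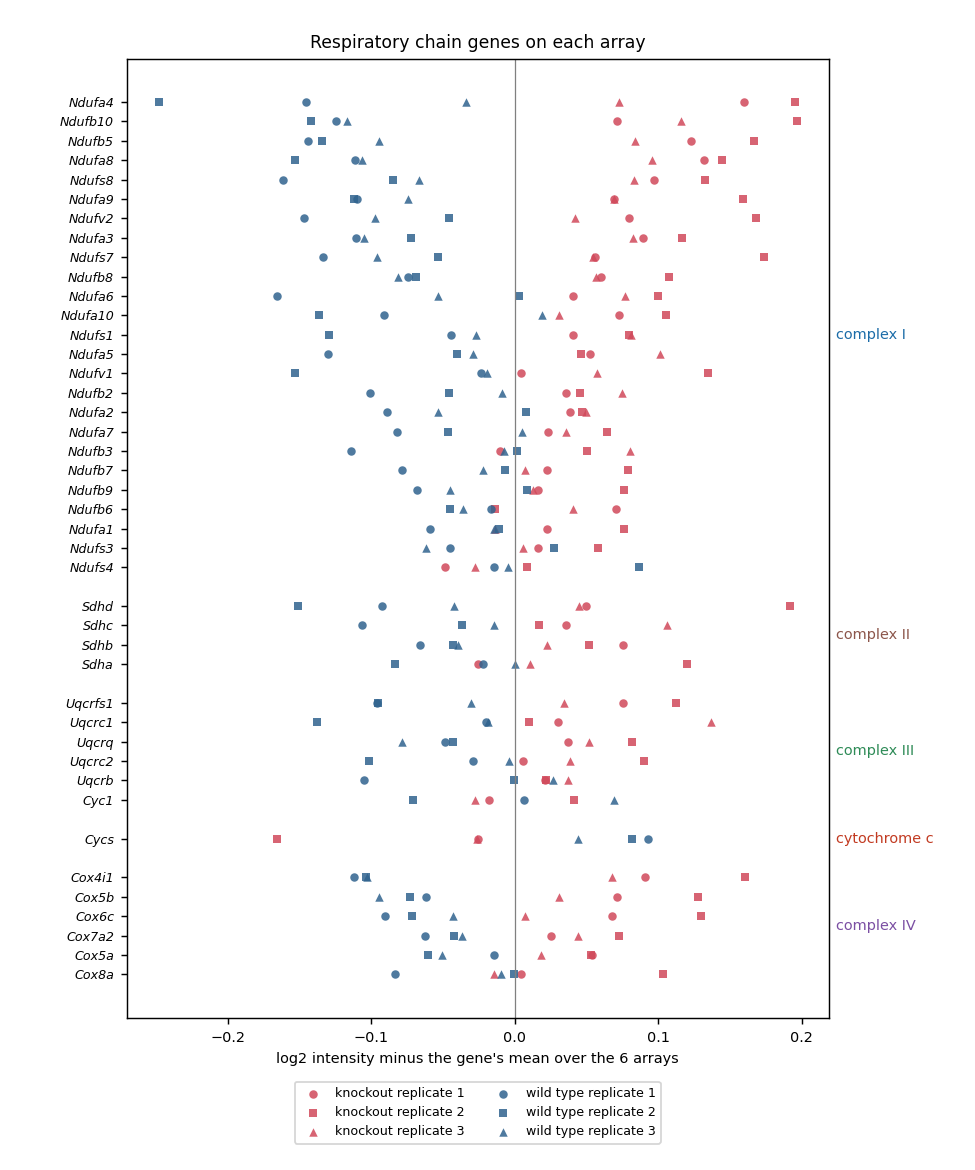
Each row is 1 gene and each symbol 1 array; the x axis is the log2 intensity minus the gene's mean over the 6 arrays, with knockout in red and wild type in blue. Knockout arrays lie to the right in most rows, without overlap in 33 of 42, whereas Cycs is turned around.

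The differences were small in absolute terms. The difference exceeded 0.2 in 6 genes, lay between 0.1 and 0.2 in 18, between 0 and 0.1 in 15, and below 0 in 3 (Cycs, Ndufs4 and Cyc1). The highest upper bound of any 95% interval was 0.46, or 37.5%, so a 2-fold change of any of these genes lay outside its interval. With 3 arrays a side, the smallest two-sided p of an exact permutation test is 0.1.

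Whether single genes passed depended on how their variance was estimated. The SD within a genotype had a median of 0.04 over the 42 genes. limma draws each variance toward a value common to all probe sets, and its SE (0.061 to 0.077) was larger than the SE from the gene's own 6 values in all 42 (median 0.033). When that common value was allowed to follow the intensity (eBayes with trend and robust settings), the median SE was 0.047. Then 12 genes were higher past the adjusted p of 0.05, beside 6.51% of all genes. They were Cox4i1, Cox5b, Ndufa3, Ndufa4, Ndufa8, Ndufa9, Ndufb5, Ndufb8, Ndufb10, Ndufs7, Ndufs8 and Ndufv2. With the probe sets above the median level only, 7 were higher, beside 9.24% of the genes then tested. In both cases 0 were lower, beside 2.76% and 4.24%.

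**Figure D2:**
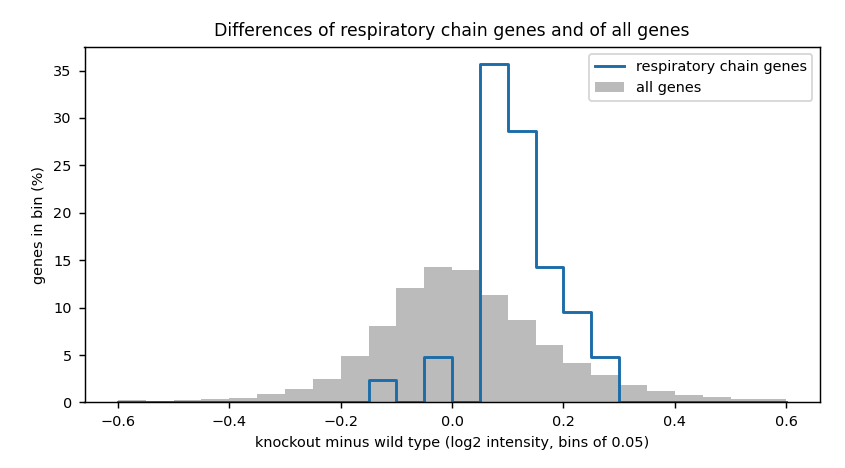
The x axis is the difference between knockout and wild type on the log2 scale in bins of 0.05, and the y axis the share of genes in each bin, for all 18193 genes (grey bars) and for the 42 respiratory chain genes (blue line). The respiratory chain genes gather between 0.05 and 0.3, inside the spread of all genes and to the right of its centre; genes beyond -0.6 or 0.6 are not drawn.

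Complex I, the NADH dehydrogenase and the largest complex of the chain, had 24 of 25 genes with a higher mean in knockout. The median difference was 0.13. In 21 genes the knockout arrays lay above without overlap (84%, against 20.7% of all genes and 33.4% of genes in the brightness range of the list). Complex I held the 4 largest differences of the list. Ndufa4, found with complex I and now counted as a subunit of complex IV, read 10.60, 10.63 and 10.51 on the knockout arrays and 10.29, 10.19 and 10.40 on the wild-type arrays. Its lowest knockout value thus lay above its highest wild-type value, and the difference was 0.29 (SE 0.08, 21.9%, n = 3 per genotype, limma adjusted p = 0.0766). With Ndufa4 placed in complex IV, the median of complex I remained at 0.13 and that of complex IV was 0.14 in place of 0.12.

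Ndufb10, an accessory subunit of the distal membrane arm, read 10.07, 10.19 and 10.11 in knockout and 9.87, 9.85 and 9.88 in wild type. Its wild-type arrays were nearly alike, and the difference was 0.26 (SE 0.07, n = 3 per genotype, limma adjusted p = 0.0647). Ndufb5, from the same arm and with the YY1 matches shown above, read 11.53, 11.58 and 11.49 in knockout and 11.27, 11.28 and 11.32 in wild type. The groups did not overlap, with a difference of 0.25 (SE 0.06, n = 3 per genotype, limma adjusted p = 0.0641). Ndufa8, an accessory subunit on the side of the intermembrane space, had the smallest p of the list. It read 10.75, 10.76 and 10.71 in knockout and 10.51, 10.47 and 10.51 in wild type, a difference of 0.25 (SE 0.06, n = 3 per genotype, limma adjusted p = 0.0613). These genotypes lay apart by several times the spread within each. When the probe sets of a gene were averaged, Ndufa8 was the single gene of the 42 past the threshold (limma adjusted p = 0.0464, background 2.44%).

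The nuclear-encoded core subunits of complex I on the list, which carry the flavin and the iron-sulfur clusters or shape the ubiquinone site, differed like the accessory ones. Over the 6 measured (Ndufs1, Ndufs3, Ndufs7, Ndufs8, Ndufv1 and Ndufv2) the median was 0.16, with a range of 0.05 to 0.21. Over the 19 accessory subunits the median was 0.13, with a range of -0.04 to 0.29. The ranges overlap, and the difference between them was not tested. Ndufs8, an iron-sulfur subunit, was the core subunit with the largest difference (0.21, SE 0.06, limma adjusted p = 0.108). Its 6 probe sets differed by 0.02 to 0.28, and the lowest limma adjusted p of any of the list's 95 probe sets, 0.0536, was among them. Ndufs4, an accessory subunit of the NADH-oxidising module, was the 1 gene of its complex with a lower mean in knockout. It read 9.87, 9.93 and 9.89 in knockout and 9.91, 10.01 and 9.92 in wild type, and these groups overlap. The difference was -0.04 (SE 0.06, n = 3 per genotype, limma adjusted p = 0.759), with a 95% interval of -0.19 to 0.10. Dimmer probe sets of Ndufs4 differed by -0.01, 0.26 and -0.03 (mean levels 8.28, 5.86 and 5.19). With the probe sets of each gene averaged, Ndufs4 was not among the lower genes. Ndufa5, a subunit of the peripheral arm and the dimmest of the 42, read 9.81, 9.81 and 9.86 in knockout and 9.63, 9.72 and 9.73 in wild type. Its groups did not overlap, with a difference of 0.13 (SE 0.06, n = 3 per genotype, limma adjusted p = 0.295). The brightness of a probe set does not measure the amount of RNA against that of another gene.

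**Figure D3:**
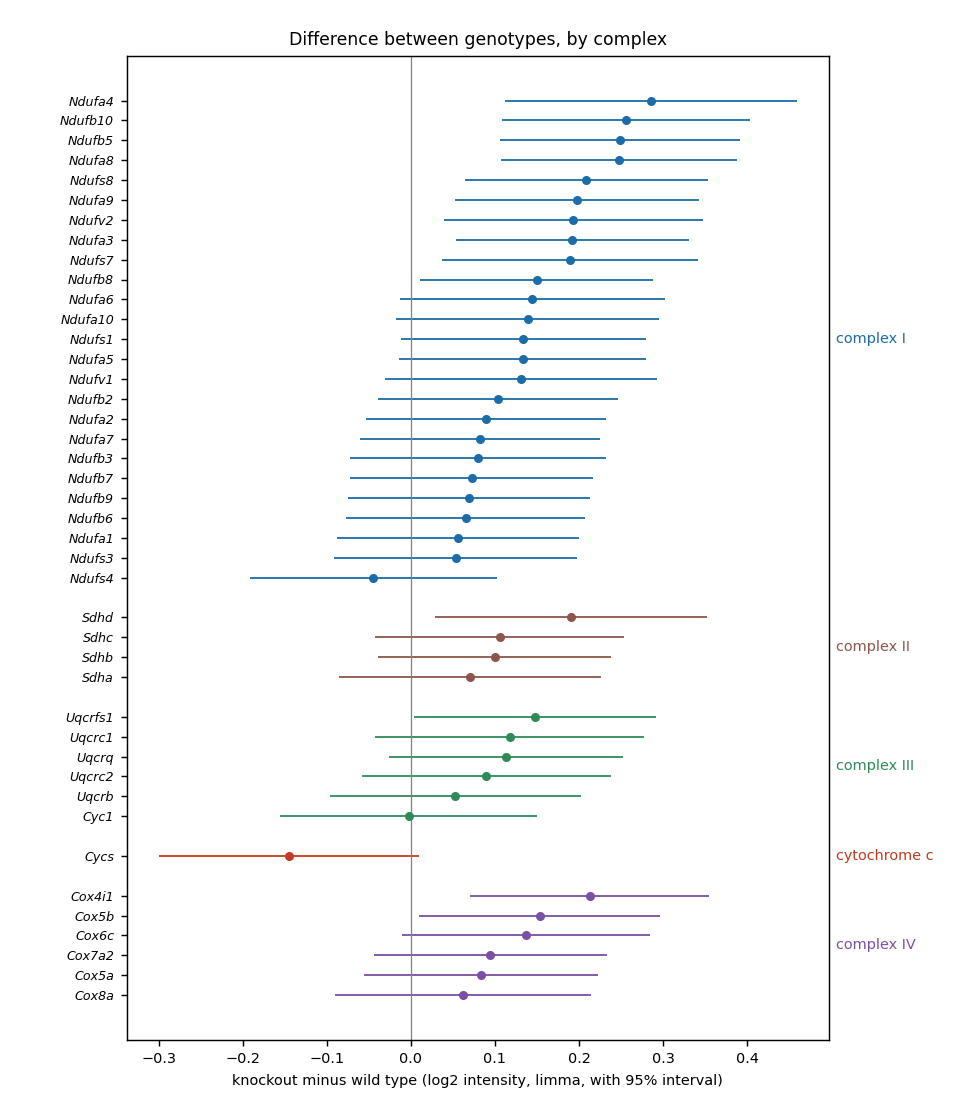
Points are the differences between knockout and wild type (log2) and bars their 95% intervals from limma, by gene and complex. The intervals of 14 of 42 genes (33.3%) exclude 0, all on the higher side. Those of 15.2% of all genes, and of 18.9% of genes in the brightness range of the list, do so on that side. In complex I they are 10 of its 25 genes (40%). The interval of Cycs reaches from -0.30 to 0.01.

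Complex II, succinate dehydrogenase, is shared by the respiratory chain and the citric acid cycle and consists wholly of nuclear-encoded subunits. All 4 of its genes had a higher mean in knockout, with a median of 0.10. In 3 of them the groups did not overlap (75%, against 20.7% of all genes and 33.4% of genes in the brightness range of the list). Sdhd, a membrane anchor, read 11.07, 11.21 and 11.06 in knockout and 10.92, 10.87 and 10.97 in wild type. Knockout replicate 2 was the highest array, the groups did not overlap, and the difference was 0.19 (SE 0.07, n = 3 per genotype, limma adjusted p = 0.175). Sdhb, the iron-sulfur subunit, read 11.36, 11.33 and 11.31 in knockout and 11.22, 11.24 and 11.24 in wild type. Here the groups were apart by a smaller step, with a difference of 0.10 (SE 0.06, n = 3 per genotype, limma adjusted p = 0.414). The other anchor gene, Sdhc, differed by 0.11. Sdha, the flavoprotein, overlapped between genotypes with a difference of 0.07.

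Complex III, the cytochrome bc complex, had 5 of 6 genes with a higher mean in knockout and a median of 0.10. Uqcrfs1, the Rieske iron-sulfur protein that moves electrons toward cytochrome c, had its smallest p. It read 10.99, 11.03 and 10.95 in knockout and 10.82, 10.82 and 10.88 in wild type, a difference of 0.15 (SE 0.06, n = 3 per genotype, limma adjusted p = 0.236). Uqcrq, a small accessory subunit, read 10.95, 10.99 and 10.96 in knockout and 10.86, 10.87 and 10.83 in wild type. Neither gene overlapped between genotypes, and the difference for Uqcrq was 0.11 (SE 0.06, n = 3 per genotype, limma adjusted p = 0.348). Uqcrb, the brightest probe set of the list, read 13.69, 13.69 and 13.70 in knockout and 13.56, 13.66 and 13.69 in wild type, with overlap (difference 0.05, SE 0.07, n = 3 per genotype, limma adjusted p = 0.717). Cyc1, the subunit that passes electrons to cytochrome c, showed no step between the genotypes. It read 10.76, 10.82 and 10.75 in knockout and 10.79, 10.71 and 10.85 in wild type, and its difference was -0.0027 with a 95% interval of -0.16 to 0.15 (limma adjusted p = 0.990). The median of complex III was 0.072 without wild-type replicate 2.

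Cytochrome c, the mobile carrier between complexes III and IV that also triggers apoptosis when released, was the exception among the 42. Cycs read 13.09, 12.95 and 13.09 in knockout and 13.21, 13.20 and 13.16 in wild type. All knockout arrays lay below all wild-type arrays, knockout replicate 2 lowest, with a difference of -0.15 (SE 0.07, n = 3 per genotype, limma adjusted p = 0.278). Its other 3 probe sets lay the same way without overlap, at -0.21, -0.22 and -0.33 (limma adjusted p of 0.156, 0.134 and 0.123). The last of these is dim, at 3.71 to 4.37. Cycs did not pass the test in any alternative run, its difference was -0.10 without knockout replicate 2, and whether it differs from the other genes of the list was not tested.

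Complex IV, cytochrome c oxidase, had a higher mean in knockout for all 6 genes and a median of 0.12. In 5 of them the groups did not overlap (83.3%, against 20.7% of all genes and 33.4% of genes in the brightness range of the list). Cox4i1, the common isoform of a subunit that takes part in regulating the enzyme, read 12.62, 12.69 and 12.60 in knockout and 12.42, 12.43 and 12.43 in wild type. The wild-type arrays were nearly alike, and the difference was 0.21 (SE 0.06, n = 3 per genotype, limma adjusted p = 0.0993). Cox5b, a zinc-binding subunit, read 13.03, 13.08 and 12.99 in knockout and 12.90, 12.88 and 12.86 in wild type. The genotypes were apart (difference 0.15, SE 0.06, limma adjusted p = 0.218), and all 4 of its bright probe sets lay higher in knockout. The remaining Cox6c, Cox7a2, Cox5a and Cox8a differed by 0.14, 0.09, 0.08 and 0.06. Without probe sets whose names end in _s_at, _x_at or _a_at, 5 genes were left and the median of complex IV was 0.074.

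The probe sets of a gene mostly gave the same direction. Of the 95 probe sets of the list, 79 lay more than 2 log2 units above the median of all values, and 73 of these were higher and 6 lower in knockout. In all 24 genes with more than 1 such probe set, these had the same sign. Of the 95, 0 passed limma's adjusted p of 0.05 in either direction, beside 2.06% of all probe sets higher and 1.7% lower. The 16 dimmer probe sets were split, 7 higher and 9 lower. Many respiratory chain genes have processed pseudogenes, and 26 of the 42 main probe sets carry a suffix (_a_at, _s_at or _x_at) that marks probes shared between transcripts. Without such probe sets 33 genes were left, 29 of them higher in knockout.

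Knockout replicate 2 stood highest in the chain. It was the highest array for 28 of the 42 genes, and wild-type replicate 1 was the lowest for 22. The median deviation of the 42 genes from their own means was 0.04, 0.09 and 0.04 on knockout replicates 1, 2 and 3 and -0.09, -0.06 and -0.04 on wild-type replicates 1, 2 and 3. Without knockout replicate 2 the median difference was 0.11, with 39 genes higher. Leaving out any other array gave 0.10 to 0.13, with 39 or 40 genes higher.

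Markers of other cell types moved with the genotypes as well. Over all genes, 2.85% passed limma's adjusted p of 0.05 as higher and 2.05% as lower. At an unadjusted p of 0.05 these shares were 15.2% and 8.15%. Dendritic cell markers had a higher mean in 8 of 8 genes, of which Batf3 and H2-DMb2 passed (limma adjusted p of 0.0382 and 0.0332), with a median of 0.48. Their summed linear intensity was 5866 to 8720 in knockout and 4572 to 5415 in wild type, highest on knockout replicate 2. Neutrophil markers had a lower mean in 6 of 7 genes, 0 of which passed in limma (6 lower and 1 higher at an unadjusted p of 0.05), with a median of -0.71. Their summed intensity was 19475 to 27569 in knockout and 27819 to 34466 in wild type, lowest on knockout replicate 2. All 6 fibroblast markers had a lower mean, 3 passed, and their sum was 203 to 237 against 356 to 407. Of 8 macrophage markers 0 were higher past the threshold and 2 lower, Fcgr1 and Mertk. Of 5 mast cell markers 1 passed as lower, and of 6 lymphocyte, 3 erythroid and 6 epithelial markers 0 passed in limma, with 1 lymphocyte and 1 epithelial marker lower at an unadjusted p of 0.05. No defining marker was listed at 0, since these log2 values have no true zero. The part of these markers in the differences of the respiratory chain genes was not tested.

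**Figure D4:**
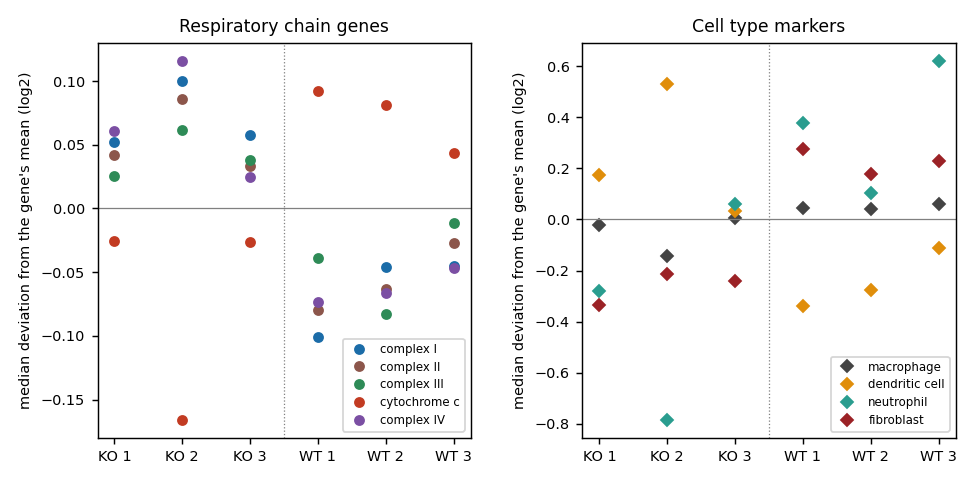
For each array the y axis gives the median deviation of a gene group from its genes' means over the 6 arrays (log2), for the complexes on the left and for marker lists on the right. Complexes I to IV lie above 0 on the 3 knockout arrays (KO) and below 0 on the 3 wild-type arrays (WT), with cytochrome c reversed; dendritic cell and neutrophil markers are at their extremes on knockout replicate 2.

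Other genes of the pathway mostly lay in the same direction, and about as few passed the test as among all genes. The mean was higher in knockout for 88 of 107 (82.2%), against 53.1% of all genes. Of 107 measured genes in 7 further lists, 4 rose (background 2.85%), 1 fell (background 2.05%) and 102 did not pass, with a median of 0.15. Among the 16 measured other subunits of complexes I, III and IV, 15 had a higher mean in knockout. In 13 the groups did not overlap (81.2%, against 20.7% of all genes and 33.4% of genes in the brightness range of the 42). In limma 0 passed at 0.05, and 9 were higher at an unadjusted p of 0.05 (56.2%, against 15.2% of all genes). Uqcr11 of complex III (0.28, limma adjusted p = 0.0594) and Cox7c of complex IV (0.24, adjusted p = 0.0719) came closest, with Ndufb11 (0.25, adjusted p = 0.0741) and Uqcrh (0.18, adjusted p = 0.141) next. Cox7c was read from a dim _s_at probe set, at a mean level of 6.71. This list was not part of the 42 genes and its median was 0.16.

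ATP synthase, which uses the proton gradient, had a higher mean in knockout for all 16 genes, with a median of 0.14. In 13 the groups did not overlap (81.2%, against 20.7% of all genes and 33.4% of genes in the brightness range of the 42). Atp5pd, a subunit of the peripheral stalk listed on the array as Atp5h, was the 1 of 16 that rose (background 2.85%). It read 12.81, 12.90 and 12.85 in knockout and 12.54, 12.49 and 12.59 in wild type, a difference of 0.31 (SE 0.07, n = 3 per genotype, limma adjusted p = 0.0371). It lost the call without each array in turn (adjusted p of 0.0657 to 0.122). The other 15 did not pass, among them the inhibitor gene Atp5if1 (0.25, adjusted p = 0.0695), the ring subunit gene Atp5mc2 (0.25, adjusted p = 0.0660) and the stalk gene Atp5po (0.22, adjusted p = 0.110).

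Assembly factors, which build cofactors and subunits into the complexes without staying in them, held the other called genes. Of 41 measured, 37 did not pass, 3 rose (background 2.85%) and 1 fell (background 2.05%), with 34 higher means and a median of 0.16. Sdhaf1, needed to insert iron-sulfur clusters into complex II, read 8.26, 8.28 and 8.15 in knockout and 7.73, 7.55 and 7.88 in wild type. Its rise of 0.52 (SE 0.09, n = 3 per genotype, limma adjusted p = 0.0251) was the largest of these lists. Coa6, which helps deliver copper to complex IV, rose by 0.40 (SE 0.07, adjusted p = 0.0257). Ecsit, a complex I assembly factor that also acts in Toll-like receptor signalling, rose by 0.32 (SE 0.07, adjusted p = 0.0493) at a mean level of 6.64. Cox18, which inserts a complex IV subunit into the membrane, fell. It read 8.42, 8.38 and 8.55 in knockout and 8.83, 8.85 and 8.84 in wild type, a difference of -0.39 (SE 0.07, n = 3 per genotype, limma adjusted p = 0.0252). Sdhaf1, Coa6, Ecsit and Cox18 each lost the call without any 1 of knockout replicates 1 and 2 and wild-type replicates 1 and 2 (adjusted p of 0.0610 to 0.152), and Ecsit (0.123) and Cox18 (0.0586) also without wild-type replicate 3. Ecsit did not pass after quantile normalization (adjusted p = 0.0670).

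**Figure D5:**
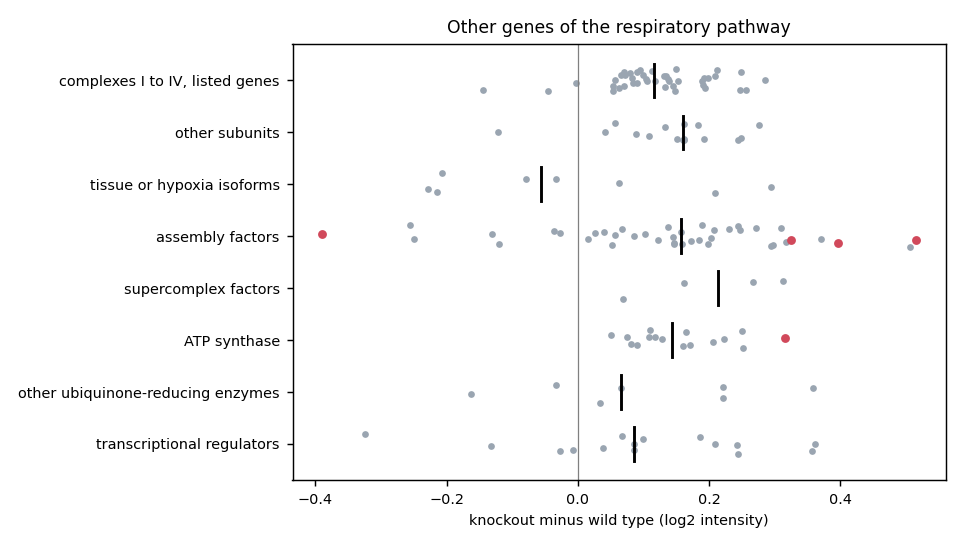
Each point is 1 gene, placed by its difference between knockout and wild type (log2), with the list on the y axis; red points passed limma's adjusted p of 0.05 and black bars are medians. The 42 genes of complexes I to IV and the other subunits, assembly factors and ATP synthase lie mostly to the right of 0, and the tissue or hypoxia isoforms lie on both sides.

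The remaining lists held no called gene in limma at 0.05. At an unadjusted p of 0.05 in limma, 15.2% of all genes were higher and 8.15% lower. Isoforms typical of other tissues or of hypoxia had 3 of 8 higher means and a median of -0.06, with 2 higher and 2 lower at an unadjusted p of 0.05. Among them Cox7a1 differed by 0.29 and Cox7b2 by -0.23 (limma adjusted p of 0.156 and 0.141), and Ndufa4l2 by 0.21 and Cox6b2 by -0.21 (0.204 and 0.237). Several of these are dim, so their sizes are poorly fixed. Of the supercomplex factors, Cox7a2l differed by 0.31 (adjusted p = 0.0973), Higd2a by 0.27 (adjusted p = 0.136), Stoml2 by 0.16 (adjusted p = 0.280) and Higd1a by 0.07 (adjusted p = 0.746). All 4 had a higher mean, with 2 higher at an unadjusted p of 0.05. Of 7 other enzymes that feed ubiquinone, 5 had a higher mean and 2 were higher at an unadjusted p of 0.05. The pyrimidine synthesis enzyme Dhodh differed by 0.36 (limma adjusted p = 0.0531) at a mean level of 6.49. Prodh, a proline-oxidising enzyme, differed by 0.22 (adjusted p = 0.267) at a mean level of 5.66. Etfb differed by 0.22 (adjusted p = 0.0969) and Gpd2 by -0.16 (adjusted p = 0.277).

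Transcriptional regulators of respiratory genes also gave 0 calls in limma. Among 15, 5 were higher and 1 lower at an unadjusted p of 0.05, against 15.2% and 8.15% of all genes. Tfb2m, a factor for transcription of mitochondrial DNA, differed by 0.36 (adjusted p = 0.0509), Hcfc1 by 0.24 (adjusted p = 0.0807) and Gabpb2, a partner of the GABP DNA-binding subunit, by 0.24 (adjusted p = 0.0951). Ppargc1a, a coactivator of mitochondrial genes, differed by -0.32 (adjusted p = 0.0709) at levels of 4.85 to 5.34, under the median of all values. Nrf1, Gabpa and Yy1, whose binding letters were searched in the promoters, differed by -0.03, 0.09 and 0.09, with 95% intervals of -0.17 to 0.12, -0.07 to 0.24 and -0.06 to 0.23. None of the 3 passed, and the choice to name them was made with their values in view.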

How the data were processed

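Values were taken from the table the authors deposited: log2 intensities of 45101 Affymetrix probe sets on 6 arrays, the log2 scale being read from the range. The submitters' processing notes name RMA, GCRMA 2.30.0, limma 3.14.4 and affy 1.36.1, and the sources used here do not say which of RMA and GCRMA made the values. Either would hide a shift of most genes, and they treat dim probe sets differently. After removal of 64 control probe sets, 45037 were tested by limma 3.58.1 under R 4.3.3, with genotype alone in lmFit and then eBayes, knockout minus wild type, with Benjamini-Hochberg adjustment over all of them and a threshold of 0.05; intervals are 95%. Gene symbols came from the platform's annotation, updated through RefSeq gene identifiers, and older ATP synthase symbols through its synonyms. The fit was run on simulated data, with differences larger than any respiratory chain gene showed. That run does not show whether differences as small as theirs would be called. The number of arrays limits the precision.

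The members and lists were chosen with earlier results of these data known. The rule for named genes took, for values on each array, the 4 genes of complex I and the 2 of each other complex with the smallest p, Cycs, the gene most opposed to its complex's median, and the brightest and dimmest. From each other list it took the 4 smallest p. Alternatives are given in the closing section. Figures were drawn with matplotlib 3.10.9.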

Additional observations from a re-analysis of the deposited data

How the results depend on the processing

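The count of respiratory chain genes higher past the threshold, 0 of 42 in the fit reported, was 12 with trend and robust settings, 7 with probe sets above the median level only, 5 at an adjusted p of 0.1 and 1 with a gene's probe sets averaged, and 0 under each other alternative. The median SE of the 42 genes was 0.064 in the fit reported and 0.047 with trend and robust settings. It was 0.055 with probe sets above the median level only and 0.057 with probe sets averaged. Both of the latter runs also adjusted over fewer tests, and the part of each in the counts was not tested. The count at an adjusted p of 0.1 is from the fit reported, at a looser threshold. The count lower was 0 under every alternative. The median difference of the 42 genes ranged from 0.10 to 0.13. The replicate block gave 0 genes in either direction and a median of 0.12. Deviations of same-numbered arrays from their group means correlated at -0.06, -0.04 and -0.13 over probe sets, and those of differently numbered arrays at -0.05 to 0.11. Deviations from the mean of 3 arrays are tied to each other. These values therefore cannot show whether equal replicate numbers pair the arrays. The median of complex III was 0.029 without suffixed probe sets, 0.068 with probe sets averaged, and 0.072 to 0.12 when each array was left out. Cycs lay at -0.22 without suffixed probe sets and at -0.23 with its probe sets averaged. The median of complex IV was 0.074 without suffixed probe sets.

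Of the 107 other pathway genes, 4 were higher and 1 lower in the fit reported, against 2.85% and 2.05% of all genes. The alternatives were chosen after seeing the data, and the share of all genes is given in brackets. The counts were 24 and 2 with trend and robust settings (6.51% and 2.76%). They were 17 and 2 with probe sets above the median level (9.24% and 4.24%) and 21 and 3 at an adjusted p of 0.1 (7.04% and 3.63%). The floor at the 20th percentile, 4.07, gave 0 and 0 (0.132% and 0.0385%), and the replicate block gave 0 and 0 (0.121% and 0.126%). The number higher was 8 after median centring (3.61%), 7 with array weights (3.09%), 11 with probe sets averaged (2.44%) and 2 without suffixed probe sets (2.67%). Leaving out each array gave 0 to 4 higher and 0 to 1 lower (0.0495% to 2.03% and 0.044% to 2.2%). Over all genes, 519 higher and 373 lower became 22 and 23 with the block, 24 and 7 with the floor, 1184 and 503 with trend and robust settings, and 9 and 8 without knockout replicate 1.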

Other observations

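Most probe sets follow nuclear genes, but 1 was annotated to ND5, a complex I subunit that is encoded by mitochondrial DNA and was not on the list. It was chosen after its values were seen. It read 12.92, 12.88 and 12.80 in knockout and 12.80, 12.79 and 12.94 in wild type, with overlap and a difference of 0.02 (SE 0.07, limma adjusted p = 0.912), and a 95% interval of -0.14 to 0.18. The probe set shared by Ndufs6 and the related Ndufs6b read 10.52, 10.55 and 10.54 in knockout and 10.37, 10.41 and 10.43 in wild type, a difference of 0.13 without overlap (SE 0.06, limma adjusted p = 0.277). It cannot be told which of the pair it measured.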
